A study of Mus musculus with 6 samples.

Results

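Chromatin that was open in mouse brown pre-adipocytes at day 0 and carried no called peak after 1 day of differentiation was examined here, at intergenic sites close to genes. The regions were chosen by measured values: peaks of 6 ATAC-seq libraries were merged where they overlapped by at least 1 bp, and a region was kept when it held a peak in 3 of 3 day 0 libraries and in 0 of 3 day 1 libraries. Its midpoint had to lie outside every protein-coding gene, more than 1 kb and at most 100 kb from the nearest gene end. This gave 4064 regions of 68913, called day 0 only intergenic regions below. Day 0 only regions at any position numbered 12066, or 17.5% of the merged regions. The presence at day 0, the absence at day 1 and the position were all used to choose the regions, and none of them is a finding.

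ATAC-seq cuts open DNA with a transposase, and a peak marks a place where sequenced fragments pile up above the local background. The day 0 group was brown pre-adipocytes of a line labelled BAT and the treatment WT, with 3 libraries. The day 1 group, also with 3 libraries, was the same labelled cell type and line after brown adipocyte differentiation to day 1, and its labels give neither a genotype nor the inducing agents. The series title concerns deletion of RUNX1 or RUNX2, and no library analysed here is labelled as deleted for either. The labels do not say whether replicates were separate cultures, so p-values describe library-to-library variation that may be technical alone.

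Many regulatory elements that steer a cell type lie outside genes, as enhancers that bind transcription factors and act on a promoter some distance away. Open chromatin is a property of active enhancers, and also of poised elements, insulators and unannotated promoters. Fibroblast-like precursors use AP-1, TEAD and RUNX factors at many enhancers, while C/EBP proteins and PPARγ take over as cells become adipocytes. The nearest gene is named below as an address and need not be the gene an element acts on.

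Fragment totals per library ran from 8127635 to 11011889 at day 0 and from 4919755 to 7302457 at day 1, so a missing day 1 call can be a signal too low to be called. Day 1 replicate 3 stood apart, with 7302457 fragments and 12556 peaks, the shortest list. Of 20241 merged intergenic regions within the same distance of genes, 15840, 11269 and 10224 were called in day 0 replicates 1 to 3 and 4044, 5079 and 2085 in day 1 replicates 1 to 3. Gene ends, meaning within 1 kb of an annotated start or end, of 10 precursor or fibroblast markers held a peak at 3 or 4 genes in each day 0 library and at 1 or 2 in each day 1 library. The 4 genes were Pdgfrb, Ly6a, Col1a1 and Col3a1, and Pdgfra held none in any library. Of 5 brown precursor markers, 2 held such a peak in each day 0 library. In day 1 replicates 1 to 3 the count was 1, 2 and 1, and the genes were Ebf2 and Zic1. Of 5 mature adipocyte markers, 1 or 2 held such a peak at day 0 and 2 or 3 at day 1. Muscle markers (5 genes) gave 3, 2 and 1 at day 0 and 1 in each day 1 library, endothelial markers (7 genes) 1 in each day 0 library and at most 1 at day 1, and immune markers (6 genes) 2, 2 and 1 at day 0 and 0 at day 1. Over all coding genes, the share with such a peak was 51.5, 47.9 and 45.8% in day 0 replicates 1 to 3. In day 1 replicates 1 to 3 it was 40.1, 43.3 and 32.9%. The precursor or fibroblast counts, out of 10 genes, lay below these shares in every library, and calls were fewer at day 1 over all genes too. A peak at a gene end does not measure expression, and the part other cell types might have in the region calls was not tested.

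Sequence could be read where a region overlapped a 300-base RefSeq promoter window, from 250 bases before to 50 after the start of a long noncoding RNA (lncRNA), on GRCm38.p6. This held by at least 100 bases for 61 of the 4064 regions (1.5%) and for 103 of the 1225 intergenic regions called in all 6 libraries (8.41%), so the sequences describe a small and promoter-like subset. The 8 printed below are those with at least 150 bases and 2 of the 3 day 0 summits inside the window that had the highest mean fold enrichment, among 35 that qualified. They show regions with and without the motifs counted next. Letters are those of the plus strand of mm10, 5′ to 3′, and capitals mark matches on either strand to an AP-1 motif (TGANTCA), a RUNX motif (TGTGGT) or a TEAD motif (GGAATG).
Gm34643: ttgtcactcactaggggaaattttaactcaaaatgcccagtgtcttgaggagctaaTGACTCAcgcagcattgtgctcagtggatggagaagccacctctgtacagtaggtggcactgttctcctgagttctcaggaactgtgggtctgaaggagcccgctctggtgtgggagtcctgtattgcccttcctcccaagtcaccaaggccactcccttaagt
8430423G03Rik: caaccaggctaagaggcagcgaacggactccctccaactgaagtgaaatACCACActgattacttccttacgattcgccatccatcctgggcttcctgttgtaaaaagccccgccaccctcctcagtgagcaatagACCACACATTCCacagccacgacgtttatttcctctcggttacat
4930578M01Rik: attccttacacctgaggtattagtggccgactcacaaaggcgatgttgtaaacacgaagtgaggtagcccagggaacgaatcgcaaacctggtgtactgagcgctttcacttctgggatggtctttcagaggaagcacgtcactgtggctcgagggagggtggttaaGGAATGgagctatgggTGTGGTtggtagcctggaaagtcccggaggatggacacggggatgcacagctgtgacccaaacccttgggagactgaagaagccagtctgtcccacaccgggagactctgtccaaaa
Gm42788: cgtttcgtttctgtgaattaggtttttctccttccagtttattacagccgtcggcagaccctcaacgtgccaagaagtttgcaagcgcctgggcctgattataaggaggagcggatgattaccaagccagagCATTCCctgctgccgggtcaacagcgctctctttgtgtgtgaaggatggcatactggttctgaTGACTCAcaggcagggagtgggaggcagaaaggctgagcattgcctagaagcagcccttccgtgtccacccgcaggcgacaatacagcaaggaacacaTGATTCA
Gm5546: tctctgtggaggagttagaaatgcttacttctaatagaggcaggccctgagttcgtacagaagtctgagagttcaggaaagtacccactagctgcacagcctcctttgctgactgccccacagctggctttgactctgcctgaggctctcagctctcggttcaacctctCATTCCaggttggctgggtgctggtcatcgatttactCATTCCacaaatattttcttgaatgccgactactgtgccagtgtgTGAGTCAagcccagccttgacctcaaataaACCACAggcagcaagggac
Snhg12: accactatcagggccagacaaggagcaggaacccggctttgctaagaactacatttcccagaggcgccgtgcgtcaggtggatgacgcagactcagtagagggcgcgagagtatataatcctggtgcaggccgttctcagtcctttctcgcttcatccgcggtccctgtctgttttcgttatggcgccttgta
Gm36102: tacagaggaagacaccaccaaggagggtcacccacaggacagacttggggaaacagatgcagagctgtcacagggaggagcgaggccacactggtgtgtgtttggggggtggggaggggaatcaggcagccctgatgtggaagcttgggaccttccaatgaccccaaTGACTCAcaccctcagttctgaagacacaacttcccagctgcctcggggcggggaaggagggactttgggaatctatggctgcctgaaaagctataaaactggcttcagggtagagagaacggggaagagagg
Gm36472: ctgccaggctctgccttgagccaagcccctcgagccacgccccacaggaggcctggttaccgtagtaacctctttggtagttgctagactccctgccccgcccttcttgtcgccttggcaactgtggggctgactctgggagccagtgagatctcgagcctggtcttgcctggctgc

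The Gm34643 stretch, chr14:103012625-103012844, lies 30.0 kb from Kctd12, which encodes an auxiliary subunit of GABA-B receptors, and holds 1 AP-1 match. Its region had fold enrichments over local background of 15.4, 12.8 and 13.8 in day 0 replicates 1 to 3. The 8430423G03Rik stretch, chr5:148950119-148950299, is 21.2 kb from Katnal1, a katanin-like microtubule-severing gene, with 14.4, 11.7 and 14.3. It carries 2 RUNX matches and 1 TEAD match, and the second RUNX match runs into the TEAD match. At chr15:98985715-98986014, the 4930578M01Rik stretch holds 1 match each for TEAD and RUNX, 32.3 kb from the tubulin gene Tuba1a, and its region had 11.9, 12 and 11.3. The Gm42788 stretch, chr5:149144013-149144312, holds 2 AP-1 matches and 1 TEAD match, 40.4 kb from Uspl1, at 12.3, 12.2 and 9.92.

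Lrig2, a gene for a membrane protein of the leucine-rich repeat family, lies 93.5 kb from the Gm5546 stretch at chr3:104360269-104360568, the only one of the 8 with matches to all of AP-1, RUNX and TEAD. Its region had 9.23, 10.1 and 14.1. The Gm36102 stretch, chr1:92751894-92752193, has 1 AP-1 match, 79.6 kb from the glypican gene Gpc1, at 12.5, 8.96 and 8.78. The Snhg12 stretch, chr4:132308535-132308727 (10.4, 11.9 and 8.95), and the Gm36472 stretch, chr1:93115155-93115331 (12, 8.86 and 8.49), match none of the 3 motifs. In the 8 regions the day 0 libraries lay between 8.49 and 15.4, and no library was highest throughout.

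Over the 61 full windows, AP-1 letters occurred in 22 (36.1%), against 9 of 103 windows (8.74%) of intergenic regions called in all 6 libraries. Regions called in 3 day 0 libraries and 1 or 2 day 1 libraries lay between, with 14 of 79 (17.7%). Of all 11587 lncRNA windows 9.31% held the AP-1 letters, and of all 32817 promoter windows 7.81%. TEAD letters were found in 37.7% of the windows of day 0 only intergenic regions, 22.3% of the windows of regions called in all 6, 16.6% of lncRNA windows and 14.7% of all windows. The RUNX letters stood in 29.5%, 21.4%, 20% and 16.8% of the same 4 sets. The SP/KLF letters GGGCGGG, common in GC-rich promoters, ran the other way, at 6.56% and 35% in the first 2 sets.

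Mean GC content was 49.5% in the 61 windows, 57.2% in the 103 and 49.3% over all lncRNA windows. All lncRNA windows, of nearly the same mean GC content as the 61, held AP-1 letters in 9.31% against 36.1%. They were not limited to open regions, and the part of base composition in the motif shares was not tested. Restricted to the bases inside each region, AP-1 matches numbered 1.74 per kb in day 0 only intergenic regions and 0.346 in regions called in all 6. The same densities were 1.51 and 0.762 for TEAD, 0.984 and 0.866 for RUNX, 1.06 and 0.450 for the NFI letters TTGGCA, and 0.303 and 2.39 for SP/KLF. Regions with 1 or 2 day 1 calls lay between for AP-1 (0.772) but had the lowest densities for TEAD (0.434) and RUNX (0.289), so those motifs showed no graded order. The CAGCTG E-box, a core bound by basic helix-loop-helix factors, stood in 31.1% of the 61 windows and 14.6% of the 103. C/EBP letters (TTNCNNAA) stood in 54.1% and 46.6%, and glucocorticoid receptor letters (ACANNNTGT) in 4.92% and 7.77%. Matches were searched on both strands as a description. They are not shown to be bound sites.

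**Figure D1:**
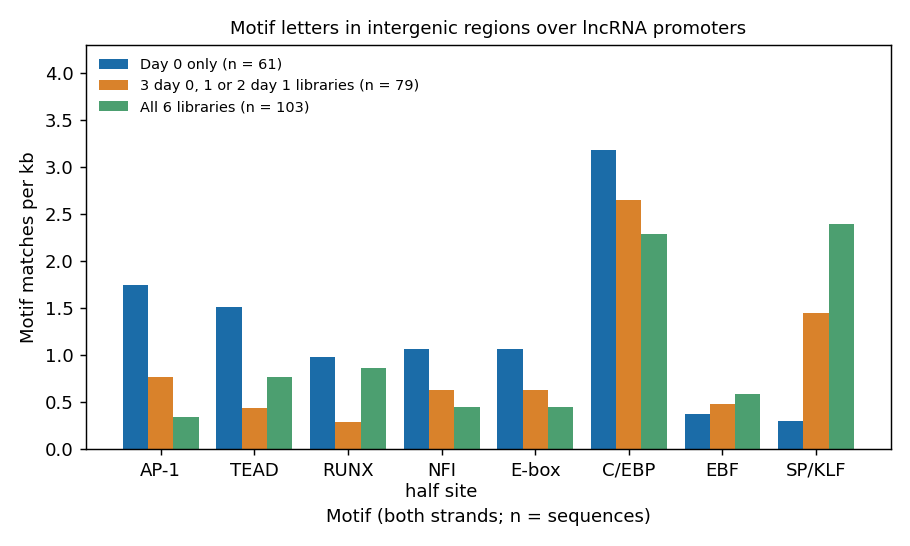
Motif matches per kb on both strands (y axis) for 8 motifs (x axis), counted in the lncRNA promoter bases inside day 0 only intergenic regions (61 sequences), regions of 3 day 0 and 1 or 2 day 1 libraries (79) and regions called in all 6 libraries (103). Bars are single densities with no error. AP-1 goes from 1.74 to 0.772 to 0.346 over the 3 sets and SP/KLF from 0.303 to 1.45 to 2.39, while TEAD and RUNX are lowest in the middle set.

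Small RNA genes also lay near the regions. Of 1005 mouse miRNA hairpins in the RefSeq table, 17 were within 5 kb of 15 day 0 only intergenic regions, and 96 were within 5 kb of any intergenic region near genes. Of all those intergenic regions 20.1% were day 0 only, and 17 of 96 is not above that share. Nearness to miRNA genes therefore did not set the day 0 only regions apart. Mature sequences from some of the 17, chosen after values were seen, are given 5′ to 3′ with the seed, bases 2 to 8, in capitals. The choice follows neither distance nor fold enrichment. Among those left out, the Mir7688 hairpin overlapped a region with fold enrichments of 10.8, 9.72 and 8.1 in day 0 replicates 1 to 3. Mir6367 lay 4.46 kb from a region with 18.1, 10.6 and 15.1. In those shown, miR-96-5p and miR-182-5p, of the same cluster, have the related seeds UUGGCAC and UUGGCAA.
mmu-miR-206-3p: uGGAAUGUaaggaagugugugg
mmu-miR-133b-3p: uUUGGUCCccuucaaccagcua
mmu-miR-96-5p: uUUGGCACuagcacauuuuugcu
mmu-miR-182-5p: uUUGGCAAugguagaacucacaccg
mmu-miR-183-5p: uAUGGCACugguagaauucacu
mmu-miR-129-5p: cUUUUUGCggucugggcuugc
mmu-miR-21a-5p: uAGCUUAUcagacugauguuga

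Mir206 and Mir133b encode muscle-enriched miRNAs that lie in 1 cluster. The Mir206 hairpin (chromosome 1, 20679010 to 20679082) lay inside a day 0 only intergenic region at 20678968 to 20679128, with fold enrichments of 7.95, 7.23 and 6.50. A second region 695 bp from the hairpin had 9.76, 9.04 and 9.85, and Mir133b lay 3.64 kb from the first. Mir96, Mir183 and Mir182, a cluster known from sensory cells, shared 1 region 0.808 to 2.31 kb away with 13.8, 9.14 and 11.4. The medians over all day 0 only intergenic regions were 8.52, 7.62 and 7.04 in the same libraries. Mir129-1 lay 574 bp from the region nearest to Lep (7.18, 10.9 and 8.47), and Mir21a, a miRNA abundant in fibroblasts, 2.33 kb from a low one (4.19, 4.31 and 4.47).

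The regions were of modest height at day 0. Summit pileups, in fragments, ranged from 5 to 92 in replicate 1 with a median of 19, from 5 to 82 with a median of 14 in replicate 2, and from 5 to 63 with a median of 12 in replicate 3. Fold enrichment had medians of 8.52, 7.62 and 7.04. The 3 day 0 libraries gave similar values for a region, with a median coefficient of variation of fold enrichment of 16.3%, though heights fixed by a shared peak call cannot vary freely. Median width was 378 bp, against 592 bp for intergenic regions called in all 6 libraries.

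Height at day 0 followed the number of day 1 calls. Of intergenic regions called in 3 of 3 day 0 libraries, 4064 had 0 day 1 calls, 1312 had 1, 948 had 2 and 1225 had 3. The median day 0 height per 1000000 fragments in replicate 1 was 1.73, 2.09, 2.45 and 3.36 in those classes, in replicate 2 it was 1.72, 2.09, 2.52 and 3.45, and in replicate 3 it was 1.31, 1.53, 1.75 and 2.4. All 3 libraries gave the same order, so the regions without a day 1 call were the lower end of a graded series.

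**Figure D2:**
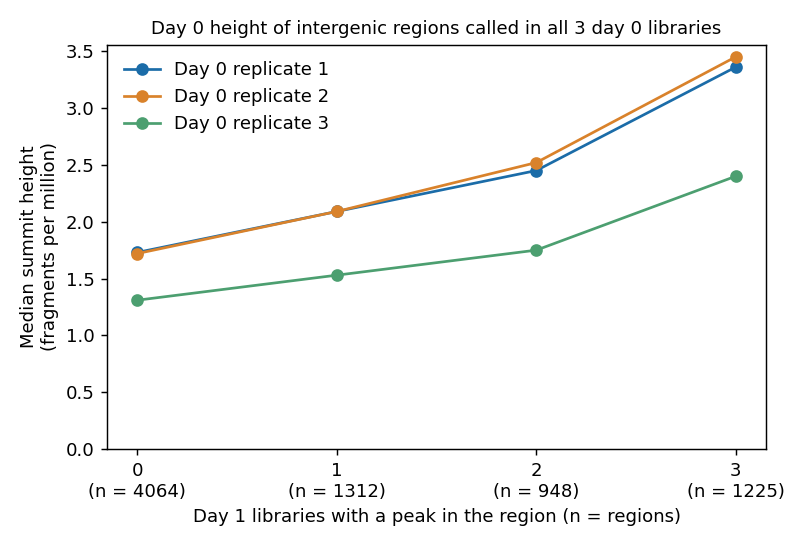
Median summit height at day 0 (y axis, fragments per 1000000) of intergenic regions near genes called in 3 of 3 day 0 libraries, by the number of day 1 libraries that called them (x axis), with 1 line per day 0 replicate and no error bars. Height is lowest with 0 day 1 calls (1.31 to 1.73) and highest with 3 (2.4 to 3.45).

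How far depth alone could set the calls was estimated roughly from the heights. If each region had kept its mean day 0 height per 1000000 fragments, the median expected day 1 pileup would have been 7.93, 9.03 and 11.8 fragments in day 1 replicates 1 to 3. The lowest pileup called in an intergenic region was 4, 4 and 5 in those libraries and the median called pileup was 10 in each. An expected pileup at or above that median in all 3 day 1 libraries was found for 1212 of the 4064 regions (29.8%). Scaling instead to the heights in 9136 regions shared by all libraries multiplied day 0 height by 1.07, 1.16 and 0.549, and left 665 (16.4%). The median called pileup is not a detection limit. The 10th percentile of called pileups was 5, 5 and 6 in day 1 replicates 1 to 3. Scaled by fragments, 10.1, 4.33 and 2.34% of the regions were expected under it. Scaled to shared regions, 6.35, 0.96 and 43.2% were. The estimate uses heights of regions chosen by their day 0 calls and takes no account of local background at day 1. Whether a lost signal or shallow depth left a given region without a day 1 call was not tested.

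A second view held list length fixed. In equal lists, where each list was cut to its 12556 peaks of lowest q, 729 of 5367 intergenic regions near genes were day 0 only (13.6%) and 333 were day 1 only. In the deposited lists the shares were 20.1% and, for 126 day 1 only regions, 0.622%. Thus the excess over day 1 only regions was 4064 to 126 in the deposited and 729 to 333 in the equal lists. Of the 4064, 488 (12%) overlapped a day 0 only region of the equal lists, which is 66.9% of those 729. The same number, 488, had all 3 day 0 peaks within the equal list length. Cutting a list adds no day 1 peak, so for these regions the equal lists reflect day 0 rank alone. The lowest −log10 q over the 3 day 0 libraries was under 5 in 1135 regions (27.9%).

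Distance to the nearest gene end had a median of 20.5 kb. By distance, 18% of all intergenic regions at 1 to 5 kb were day 0 only, 18.8% at 5 to 10 kb, 19.9% at 10 to 20 kb, 20.7% at 20 to 50 kb and 22.3% at 50 to 100 kb. The share called in all 6 libraries ran the other way, from 6.75% in the nearest bin to 5.07% in the farthest. Median day 0 height of the day 0 only regions was between 1.53 and 1.70 fragments per 1000000 in the 5 bins, with no steady order. Across chromosomes the share ran from 15.4% on X to 22.8% on chromosome 3, apart from Y with 0 of 3 regions. Inside annotated lncRNA genes lay 18.2% of the day 0 only intergenic regions, 18.7% of the other intergenic regions near genes and 25.7% of those called in all 6.

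**Figure D3:**
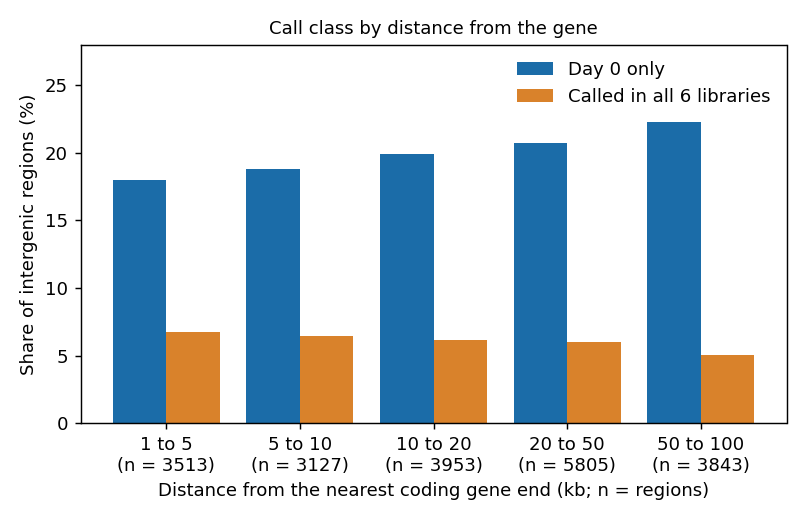
Share of intergenic regions (y axis, %) that are day 0 only or called in all 6 libraries, by distance from the nearest coding gene end (x axis, kb). The day 0 only share is 18% at 1 to 5 kb and 22.3% at 50 to 100 kb, while the share called in all 6 goes from 6.75% to 5.07%.

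The regions nearest to the limits of the distance rule varied among themselves. Just outside the 1 kb limit were regions 998 bp from Vim, the fibroblast intermediate filament gene, with fold enrichments of 9.73, 7.88 and 9.62, and 997 bp from Tln1, which encodes the focal adhesion protein talin, with 9.63, 11.2 and 10.9. Just inside were regions 1012 bp from Agap2 (3.76, 3.37 and 6.46) and 1013 bp from Podxl (12.2, 10.6 and 7.98). At 100 kb the last regions inside were those of Ccnd2 (10.7, 9.74 and 5.67) and Spcs3 (7.38, 5.70 and 4.57), and the first outside those of Asap1 (6.65, 4.90 and 3.85) and Trpc6 (13.7, 12 and 10.3).

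Day 0 only regions elsewhere had much the same height. In replicate 1 the median height was 1.73 fragments per 1000000 for the 4064 intergenic regions, for 5837 regions inside genes, for 1405 in gene deserts over 100 kb from a gene, and for 760 at gene ends. Median fold enrichment in replicate 1 was 8.52, 8.43, 9.37 and 7.21 in those classes. Gene deserts were highest and gene ends lowest in replicates 2 and 3 too.

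The strongest regions by mean day 0 fold enrichment, 1 per gene, lay near Zfat, Cd47, Chsy3, Spaca6, Irx6, Pgbd1, Polr1d, Cdk17, Nrip1, Ier5, Vmn1r60 and Trim52. Means ran from 19.9 ± 2.92 at Zfat to 17.5 ± 1.35 at Trim52 (SD, n = 3). Every one of these 12 regions was also day 0 only in the equal lists. That follows from their high day 0 rank alone, since cutting a list adds no day 1 peak. The region 83.8 kb from Zfat, a zinc finger gene, spans 68342507 to 68343032 on chromosome 15 and had fold enrichments of 19.2, 17.3 and 23.0. Near Cd47, the gene of a cell surface signal that restrains phagocytosis, a region 26.6 kb away at chromosome 16, 49938805 to 49939302, had 17.3, 18.7 and 21.7. These values overlapped between the genes, so their order is not resolved by 3 libraries.

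Nrip1 encodes a corepressor of nuclear receptors that restrains brown fat genes. Its region, 35.7 kb away at chromosome 16, 76409298 to 76409738, had 22.8, 17.0 and 13.9, the widest spread of the 12. Irx6, an Iroquois homeobox gene, had a region 25.5 kb away with 19.8, 17.1 and 17.2. Polr1d, which encodes a subunit of RNA polymerases I and III, had one 20.8 kb away with 19.8, 18.5 and 15.7. Cdk17, a cyclin-dependent kinase gene, had a region 22.1 kb away with pileups of 92, 82 and 50 fragments, the tallest of the 12 in replicates 1 and 2, while Cd47 with 63 was taller in replicate 3. Ier5, an immediate early gene, had 3 regions, and the strongest, 55.8 kb away, had 21.6, 15.9 and 15.7. Chsy3, a chondroitin sulfate synthase gene, had 19.4, 17.7 and 18.5 in a region 12.5 kb away.

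**Figure D4:**
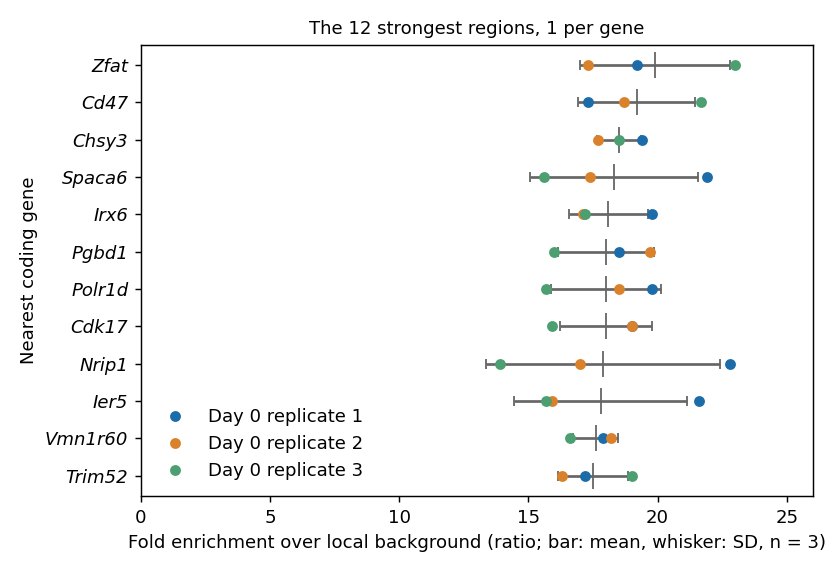
Fold enrichment over local background (x axis) in the 3 day 0 libraries for the strongest day 0 only intergenic region of each of 12 genes (y axis), 1 point per library, with the mean as a vertical tick and the SD as whiskers. Means run from 17.5 at Trim52 to 19.9 at Zfat, and the points of neighbouring genes overlap.

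Some genes had several regions. Of 7861 coding genes nearest to any intergenic region, 2886 (36.7%) had at least 1 day 0 only region, and in equal lists 666 of 3536 did (18.8%). At least 2 regions were found at 808 genes, which together held 48.9% of the 4064, at least 3 at 251 genes and at least 5 at 27. The median distance from a region to the next of its kind was 50.7 kb, and 30.9% had another within 20 kb. These counts and distances are not set against those of all intergenic regions, so they do not show clustering. Genes with wide intergenic flanks have more room for regions, so a count per gene also reflects that room.

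The highest count, 7, was shared by Sash1, Piezo2, Irf2bp2 and Tomm20. Piezo2, a mechanically gated cation channel gene, had 8 intergenic regions in all, of which 7 were day 0 only, 13.2 to 76.1 kb away on 1 side of the gene, and its gene ends were called in every library. The strongest of the 7 had fold enrichments of 12.1, 10.4 and 13.6 and the weakest 6.25, 5.06 and 4.57. Sash1, a scaffold and tumour suppressor gene, had 7 of 16 regions, all on 1 side between 10.2 and 68.9 kb away, the strongest with 10.8, 9.10 and 11.4. Irf2bp2, a transcriptional corepressor gene, and Tomm20, which encodes a mitochondrial import receptor, border the same stretch of chromosome 8, and 5 of the 7 regions of Irf2bp2 and all 7 of Tomm20 lie between them. Irf2bp2 also had 4 regions called in all 6 libraries and 1 day 1 only region.

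Azin1, Tmco5, Bnc2, Trabd2b and Rab11fip2 had 6 regions each. Arf6 was 1 of several genes with 5, since 27 genes had at least 5 and 9 had at least 6. Bnc2, a zinc finger gene expressed in fibroblasts, had 6 of its 7 intergenic regions day 0 only, and Rab11fip2, an endosome recycling gene, likewise 6 of 7. For Trabd2b, which encodes a metalloprotease that inactivates Wnt proteins, it was 6 of 20, with 13.1, 10.5 and 9.41 in the strongest region. At Arf6, a small GTPase gene of membrane traffic, the strongest of 5 regions had 14.2, 14.9 and 14.3, nearly equal in the 3 libraries.

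The 20 gene lists were set against these backgrounds. Extracellular matrix genes had the highest share of genes with a region in the 20 lists. It was 18 of the 23 that had any intergenic region (78.3%), against 36.7% over all coding genes. These 23 genes had 150 regions, against 20241 at 7861 genes over all. A gene with more regions has more chances to hold a day 0 only one, here and in the lists below. Of the 150 regions, 41 (27.3%) were day 0 only, against 20.1% of all intergenic regions near genes. In equal lists 8 of 19 genes had one (42.1% against 18.8%), and the share of regions was 20.8%, against 13.6%. Thbs2, a matricellular thrombospondin, had 5 regions, and the strongest, 17.3 kb away, had fold enrichments of 12.1, 11.3 and 14.1. Col6a3 and Col1a2, genes of a microfibrillar and a fibrillar collagen, had 4 each, led by 13.9, 11.0 and 12.9 at Col6a3 and 9.95, 11.0 and 7.23 at Col1a2. Col3a1, of fibrillar collagen III, had 3, at 12.8, 15.9 and 9.70 in the strongest. No p-value is given for a list, since the lists were chosen with earlier results known.

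Genes of FGF signalling and its ERK feedback gave 10 of 14 genes (71.4% against 36.7%) and 17 of 60 regions (28.3% against 20.1%). In equal lists they gave 3 of 13 genes (23.1% against 18.8%) and 19.2% of regions, against 13.6%. Spry2, which encodes the receptor tyrosine kinase inhibitor Sprouty2, had 5 of its 7 intergenic regions day 0 only, between 1.03 and 86.6 kb away on both sides of the gene. The strongest had 14, 9.94 and 11.2. Dusp5 and Dusp6, ERK phosphatase genes, had 3 and 1, with 12.6, 9.87 and 13.4 in the strongest region of Dusp5 and 17.7, 14.6 and 12.9 at Dusp6. Fgfr2, a receptor gene, had 2 weaker regions (6.81, 6.96 and 4.57, and 7.06, 5.07 and 6.2).

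TGF-beta and BMP genes gave 11 of 21 genes and 25% of regions. In equal lists the share was 17.6% against 13.6%, but 9.09% against 14.2% when day 1 replicate 3 was also left out and the lists lengthened to the 20069 peaks of the next shortest. Among ligands, Tgfb2 had 3 regions, the strongest at 11.0, 10.3 and 7.70. Among transducers Smad3 had 2 (7.81, 10.9 and 8.02 in the stronger), and among inhibitors Smad6 had 4 and Smad7 had 2. In the Wnt list 11 of 25 genes and 18.9% of regions qualified, near the background. The secreted Wnt agonist gene Rspo2 had 3, the strongest at 15.0, 12.1 and 10.5, and the nuclear effectors Tcf7l2 and Lef1 had 3 and 2, with 16.5, 12.2 and 10.6 in the strongest of Tcf7l2. YAP and TEAD genes gave 5 of 12 genes and 24.3% of regions, and in equal lists 13.3%, near the background of 13.6%. Their targets Ankrd1, Ccn1 and Ccn2 had 3, 2 and 2, led by 12.9, 15.2 and 12 at Ankrd1.

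Adipogenic transcription factor genes gave 9 of 17 genes and 20 of 80 regions (25%), but in equal lists 1 of 11 genes and 4.55% against 13.6%, so their place relative to the background turned with list length. Pparg, the master regulator of adipogenesis, had 2 regions. The one 3.29 kb away, chromosome 6, 115493216 to 115494162, had fold enrichments of 8.17, 6.74 and 6.83, and the one 37.7 kb away had 5.68, 5.06 and 9.89. Their means of 7.25 and 6.88 lay under the median of 7.74 over all day 0 only intergenic regions. Neither was day 0 only in the equal lists, which here reflects day 0 rank alone. Cebpa and Cebpb, C/EBP factor genes that act in sequence in adipogenesis, had 2 each. The strongest of Cebpa, 5.36 kb away, had 8.94, 8.61 and 9.59, and that of Cebpb, 23.3 kb away, 8.30, 8.07 and 8.17, which differed little between libraries.

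Klf4, an early adipogenic factor, had 3 regions, led by 13.7, 13.2 and 13.4 at 9.28 kb. Its other regions, 37.6 and 38.4 kb away on the opposite side, had 10.9, 6.34 and 12.5, and 5.79, 4.82 and 6.25. Ebf2, a marker of committed brown precursors, had 1 region 24.7 kb away with 10.2, 7.77 and 5.15, beside 2 called in all 6 libraries. Rxra, the partner receptor of PPARγ, had 5 of 19, the strongest at 11.7, 7.62 and 10.2. Zfp423, Cebpd, Ppargc1a, Fabp4, Pdgfra and Pdgfrb had no such region among 4, 1, 1, 2, 5 and 1 intergenic regions, and Prdm16 had no intergenic region at all.

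In the RUNX list 2 of 5 genes had one, and 3 of 14 regions (21.4%), with 0 in equal lists. Runx1, a Runt-domain factor gene named in the series title, had 2 of 4. The region 79.7 kb away, chromosome 16, 92905638 to 92905999, had fold enrichments of 12.8, 8.51 and 6.48, and the one 27.9 kb away on the other side, 92573302 to 92573763, had 8.30, 9.21 and 9.27. Replicate 1 was highest at the first and lowest at the second. Runx2, the other factor of the title, had 0 of 3, though its gene ends were called in 3 day 0 libraries and 1 day 1 library. Runx1t1, which encodes a corepressor known as a RUNX1 fusion partner, had 1 region, 23.1 kb away, with 8.70, 6.71 and 9.15.

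AP-1 and immediate early genes gave 5 of 14 genes and 15.6% of regions, and in equal lists 1 of 12 genes and 5.56%, against 13.6%. Fosl2, an AP-1 subunit gene, had both of its 2 intergenic regions day 0 only, with 14.3, 12.3 and 10.1 in the stronger. Glucocorticoid and cAMP responsive genes gave 7 of 17 genes and 25.8%, but in equal lists 1 of 13 genes and 12.5%, under the 13.6% background. Dusp1, a MAP kinase phosphatase induced by glucocorticoids, had 5 of 10, all weak (at most 8.73 in any library), and Sgk1, a glucocorticoid-induced kinase, 4 of 9, led by 13.4, 11.7 and 11.0. Thermogenic and brown fat genes had the lowest share, 2 of 12 genes and 10% of regions, at Eva1a (14, 13.4 and 8.15) and the adrenergic receptor gene Adrb3 (7.04, 6.32 and 4.57).

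Mature adipocyte lipid genes gave 5 of 14 genes and 14.3% of regions. Acsl1, an acyl-CoA synthetase, had 1 strong region 41.1 kb away with 14, 15.5 and 14.1, while 2 of its other regions were day 1 only. Precursor and fibroblast genes gave 6 of 13 and 14.8%, below the 20.1% background, and in equal lists 3 of 15 (20% against 13.6%) at 1 gene, or 13.6% against 14.2% in the longer equal lists without day 1 replicate 3. Thy1, a fibroblast surface marker, had 2, the stronger 3.49 kb away with 16.1, 12.2 and 10.9. For cell cycle genes it was 6 of 11 and 13.4%, with 4 of 15 regions at Myc, led by 15.6, 12.9 and 15.5. Actin cytoskeleton and SRF genes gave 8 of 15 and 21.2%, axon guidance genes 12 of 24 and 20.5%, and housekeeping genes 2 of 6 and 16.1%. In equal lists the actin genes gave 0 of 12 regions, or 13.6% against 14.2% in the longer equal lists without day 1 replicate 3. Axon guidance genes gave 13.6% in equal lists and housekeeping genes 11.1%, against 13.6% over all.

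**Figure D5:**
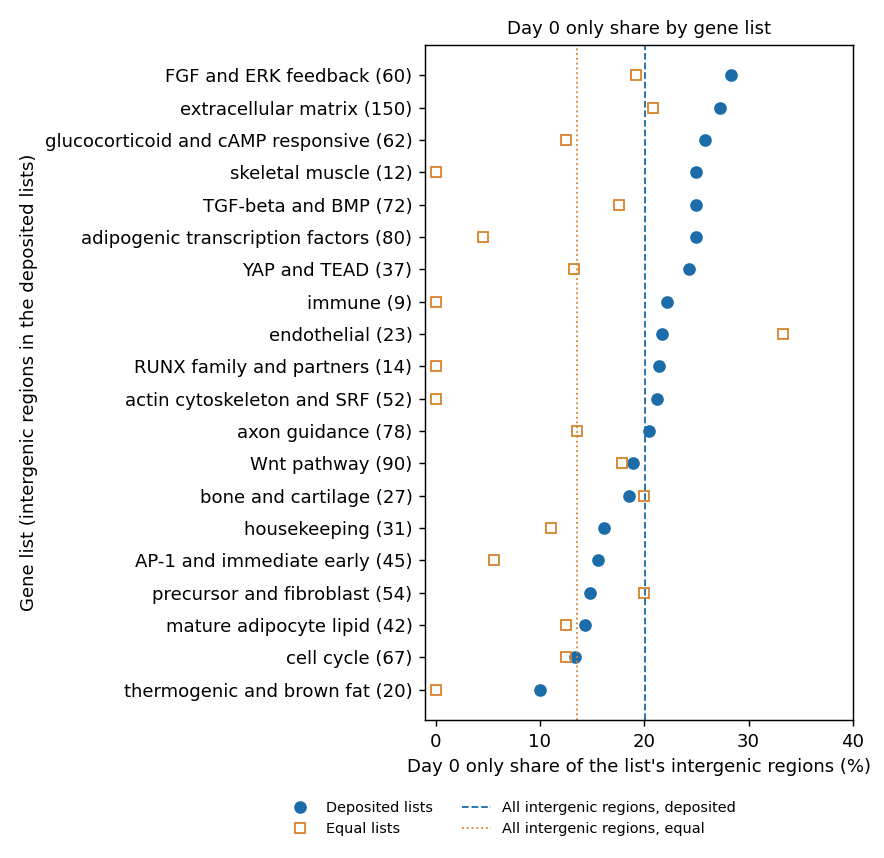
Day 0 only share of the intergenic regions of 20 gene lists (x axis, %), with the number of regions in brackets (y axis), in the deposited lists (filled circles) and equal lists (open squares). Lines mark all intergenic regions near genes, 20.1% and 13.6%, and the adipogenic factors lie above the first at 25% and below the second at 4.55%.

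Measures at the same genes that the rule did not use were compared over libraries. The gene sets themselves were split by the rule, from calls in these same libraries, so the comparison is not independent support. Of 2886 genes with a day 0 only intergenic region, a gene-end peak was found at 67.0, 61.9 and 58.9% in day 0 replicates 1 to 3 and at 51.7, 55.9 and 42.0% in day 1 replicates 1 to 3, which were sequenced less deeply. The means were 62.6 ± 4.08% and 49.9 ± 7.15% (SD, n = 3 each), and the groups did not overlap (two-sided exact permutation p = 0.1, the smallest that 3 libraries against 3 allow). In equal lists the difference turned, 8.91 percentage points higher at day 1 (p = 0.1, exact permutation). The 4975 comparison genes, which had intergenic regions but no day 0 only one, gave 59.8, 55.1 and 52.9% and 45.5, 50.1 and 38.0%.

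The gap between both gene sets was 7.14, 6.75 and 6 percentage points at day 0 and 6.2, 5.87 and 3.97 at day 1, positive in every library. Its mean was 6.63 ± 0.579 and 5.35 ± 1.21 (SD, n = 3 each), and the groups overlapped (two-sided exact permutation p = 0.2). Inside genes, 61.4 ± 13.3% of 9001 regions at the first gene set were called per day 0 library and 19.9 ± 7.64% per day 1 library, against 60.2 ± 14.1% and 20.2 ± 7.83% of 10257 regions at the comparison genes (SD, n = 3 each). The gap was 0.412, 1.04 and 2.19 points at day 0 and −0.235, −0.510 and −0.104 at day 1 (two-sided exact permutation p = 0.1, the smallest possible). The groups did not overlap, and the difference of 1.5 points was small beside the spread of the shares themselves.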

How the data were processed

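ATAC-seq of brown pre-adipocytes at day 0 and day 1 was analysed from 6 peak lists, 3 per day, in mm10 coordinates. Per the file headers, the authors ran MACS2 2.2.7.1 on each library by itself at a q cutoff of 0.05. In the deposited lists the pileup is a signal in fragments at the summit, the fold enrichment is its ratio to local background, p and q are given as −log10 values, and the length is in bp. Fragment totals came from the file headers. These totals limit what a missing call can show, and no interval is given, since reads per region were not used here.

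Overlapping peaks (chromosomes 1 to 19, X, Y) were merged in Python 3.11.15 with pandas 2.3.3 and numpy 2.4.6, and placed against 21887 coding genes of RefSeq GRCm38.p6, a table without strand or exons. Height is the pileup per 1000000 fragments of the library. The regions and the gene lists were chosen with earlier results of these data known. Named genes are 14 regulators and markers, the 12 strongest regions, 1 per gene, the 10 genes with most regions, and up to 4 per list; lncRNAs, miRNAs and genes at the limits were chosen after values were seen. Shares computed once for each library were tested with the two-sided exact permutation test of scipy 1.17.1. Tested on simulated lists with 2470 planted regions among 41800 sites, 100% were recovered. The planted peaks had fixed patterns of presence, so this checks the code and not the effect of depth or missed calls. A planned motif count over summits needs the genome, which was not used here, so motifs were searched in RefSeq promoter windows, chosen after seeing the data.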

Additional observations from a re-analysis of the deposited data

How the results depend on the processing

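Against 4064 day 0 only and 126 day 1 only intergenic regions in the deposited lists, equal lists gave 729 and 333, equal lists without day 1 replicate 3, lengthened to 20069 peaks (added after seeing the data), 1307 and 823, and a rule of at least 2 of 3 libraries 7202 and 433. Leaving out each library in turn gave 4150 to 5814 and 133 to 371, the 371 without day 1 replicate 3. The −log10 q minimum of 5, 500 bp bins, whole regions outside genes and the distance limits left both counts within 1.5 times.

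The day 1 minus day 0 difference in gene-end calls at genes with a day 0 only intergenic region was −12.71 percentage points. It reversed in equal lists, to 8.909 (exact permutation p = 0.1), and in equal lists without day 1 replicate 3, to 7.087 (p = 0.2, exact permutation). The gap to the comparison genes changed by −1.281 and reversed in equal lists, to 0.8717 (exact permutation p = 0.3), with −0.2016 without day 1 replicate 3. The causes were not tested, but an equal list removes more peaks from day 0 by construction. Leaving out 1 library gave −16.05 to −8.792, −2.099 to −0.6128 and, for the gap inside genes, −2.275 to −0.8486. That gap was −4.835 in equal lists (exact permutation p = 0.1) and −0.3787 in equal lists without day 1 replicate 3 (exact permutation p = 0.8). With the replicate number as a block these differences kept their values of −12.71, −1.281 and −1.498 (exact sign-flip p = 0.25 for each, the smallest 3 pairs allow). Deviations of same-numbered libraries correlated at −0.0365, 0.0544 and 0.00808 over 9136 shared regions. The labels do not say whether equal numbers are paired, and these values cannot decide it.

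The 20 counts of genes with a region were the same without day 1 replicate 3, while regions went from 17 to 18 for the Wnt and FGF lists, and 19 of the gene counts were lower in equal lists. The planned motif count over 300-base and 200-base summit windows was not run. Depth limits these results: for 16.4 to 29.8% of the regions, by scaling, the height expected at unchanged day 0 signal reached the median called pileup in all 3 day 1 libraries. That median is not a detection limit. By library and scaling, 0.96 to 43.2% of the regions were expected under the 10th percentile of called pileups.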

Other observations

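Markers of other lineages had day 0 only intergenic regions as well. Among 7 endothelial genes with any intergenic region, 3 had one, as did 5 of 23 regions (21.7%, against 20.1% of all intergenic regions near genes), and Kdr, the VEGF receptor gene, had one 11.4 kb away with fold enrichments of 15.5, 16.9 and 11.7 in the day 0 libraries. Flt1, the other VEGF receptor gene, had 3, none above 11.7 in any library. In equal lists the endothelial share was 33.3% of 9 regions, and it was 7.69% of 13 in equal lists without day 1 replicate 3, with lists lengthened to the next shortest, 20069 peaks, while in the deposited lists without that library it stayed at 21.7%. Bone and cartilage genes gave 3 of 9 genes and 18.5% of regions, with Tnfrsf11b, the gene of osteoprotegerin, at 17.0, 12.1 and 11.3, and Sox9, the cartilage regulator, at 13.4, 9.75 and 8.73. Skeletal muscle genes gave 3 of 5 genes and 3 of 12 regions, at Pax7 (13.2, 9.82 and 9.80), Pax3 (8.52, 8.11 and 5.23) and Acta1 (7.84, 6.07 and 6.49). For immune genes it was 1 of 3, Ptprc, with 2 regions of at most 8.40 in any library. In all of these lists the counts are small and no test was made.

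Axon guidance genes were at the background, with 16 of 78 regions day 0 only (20.5% against 20.1%). Slit2, a secreted guidance ligand, had 2 of 3 intergenic regions day 0 only, with 12.3, 15.2 and 11.0, and 13.2, 9.76 and 12.2. Ntn4, a netrin of basement membranes, had 3 of 6, led by 12.1, 12 and 10.5. The strongest region of Efna5, an ephrin ligand gene, had 13.7, 10.3 and 7.73, and that of Unc5b, a netrin receptor gene, 9.40, 9.54 and 10. Among cytoskeletal genes, Vcl, which encodes the focal adhesion protein vinculin, had 1 of 3 with 12.2, 11.7 and 7.47, and Tpm1, a tropomyosin gene, 2 of 11, led by 8.22, 9.25 and 8.44.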
